A study of Mus musculus with 14 samples.

Results

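The 10 genes described here are 5 factors that steer epithelial splicing (Esrp1, Esrp2, Hnrnpab, Rbfox2 and Ptbp1) and 5 genes whose epithelial and mesenchymal forms differ by alternative exons (Fgfr2, Fgfr3, Cd44, Ctnnd1 and Enah). They were chosen by name, with earlier results of these data known. All 10 were among the 27179 genes measured in cultured keratinocytes and the 24411 genes measured in epidermis, and all 10 passed the filter on low counts in both. The 5 spliced genes had 22 of the 35034 transcripts measured in epidermis, and 17 of these carried a mean share of at least 1% of their gene's expression in a genotype. The p63beta samples came from newborn mice with both Trp63 alleles floxed around exon 13 and a KRT14-Cre transgene, which removes that exon where the keratin 14 promoter is active, as in basal keratinocytes. The p63alpha samples came from newborn mice with the same floxed alleles and no Cre, so both genotypes carry the floxed allele, and the presence of Cre and the loss of exon 13 cannot be told apart. Keratinocytes isolated from newborn epidermis and grown in low-calcium medium gave 3 p63beta and 3 p63alpha libraries, and epidermis, which an overnight incubation with trypsin had freed from the dermis, gave 4 p63beta and 4 p63alpha libraries. Nothing in the labels ties each library to an animal of its own, so the p-values rest on the spread among these libraries, which may be technical.

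The transcription factor p63 is required for stratified epithelia, and its alpha ending, which exon 13 helps encode, holds a sterile alpha motif domain. In human syndromes with mutations in that domain, p63 has been linked to the RNA-binding protein HNRNPAB and to the splicing of FGFR2. Esrp1 and Esrp2 are epithelium-restricted RNA-binding proteins that favour the epithelial forms of many genes, among them the IIIb exon of Fgfr2, the variable exons of Cd44, the short form of Ctnnd1 and a small extra exon of Enah. Rbfox2 binds GCAUG elements and Ptbp1 binds pyrimidine tracts, and both take part in the choice between the FGF receptor exons. The comparison asks whether the factors, or the forms of their targets, differed when the alpha ending of p63 was lost.

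Fgfr2 and Fgfr3 encode FGF receptors whose last immunoglobulin domain ends in 1 of 2 alternative exons. The Fgfr2 receptor with the IIIb exon binds ligands made by mesenchyme, such as Fgf7 and Fgf10, and that with IIIc binds others. The exons below are shown because the receptor shares are defined by them, and were read from GENCODE M21 transcripts (GRCm38, the build of the files). Fgfr2 lies on the minus strand of chromosome 7, where its IIIb exon is chr7:130199758-130199905.
Fgfr2 IIIb exon: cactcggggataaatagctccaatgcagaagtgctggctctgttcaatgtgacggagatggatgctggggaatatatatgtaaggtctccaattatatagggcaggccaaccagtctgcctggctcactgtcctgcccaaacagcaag
Fgfr3 lies on the plus strand of chromosome 5, with its IIIb exon at chr5:33731281-33731431 and its IIIc exon at chr5:33732117-33732261. Capitals mark runs of 6 or more bases shared by both exons of Fgfr3.
Fgfr3 IIIb exon: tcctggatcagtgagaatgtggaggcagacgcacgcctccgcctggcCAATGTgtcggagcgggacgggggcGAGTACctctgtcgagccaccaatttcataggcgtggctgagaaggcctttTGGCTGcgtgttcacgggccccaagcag
Fgfr3 IIIc exon: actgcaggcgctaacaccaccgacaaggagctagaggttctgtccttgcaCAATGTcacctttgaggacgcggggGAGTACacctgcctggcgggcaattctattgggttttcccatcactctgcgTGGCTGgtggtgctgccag
In a global alignment 81 bases (53.6% of the IIIb exon) were identical between the IIIb and IIIc exons of Fgfr3, and the IIIb exons of the receptors shared 85 bases (57.4% of the Fgfr2 exon).

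Cd44 encodes the hyaluronan receptor of epithelial and many other cells. Its standard form skips a block of 10 variable exons in the part of the gene that encodes the outer stem of the protein, and forms with variable exons are typical of epithelium. Cd44 lies on the minus strand of chromosome 2 (chr2:102811141-102901669). The junctions below set the standard transcript NM_001039151 beside NM_009851, which holds all 10 variable exons, because these are the transcripts whose shares separated the genotypes. Lower case is the end of the last exon before the block and capitals are the first bases of the exon joined to it.
Cd44 NM_001039151 junction: gcaccttggccaccaGAGATCGAGACTCAT
Cd44 NM_009851 junction: gcaccttggccaccaTTGCCTCAACTGTGC
The other transcripts start later in the block and keep all that follows, so that NM_001177785 holds 7 variable exons, NM_001039150 holds 5, NM_001177786 holds 3 and NM_001177787 holds 2. All 10 variable exons have a length that is a multiple of 3 bases, and together they add 1245 bases.

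Enah encodes Mena, an actin regulator at adhesions and protrusions. Its 57-base exon at chr1:181935660-181935716 marks the form described in invasive mouse tumour cells. A 63-base exon at chr1:181911597-181911659 is annotated in 1 other GENCODE transcript and in none of the 4 Enah transcripts of the deposited table, so that no share can be given for it. Both are on the minus strand, and they are shown because only the first can be followed in these data.
Enah alternative exon 1: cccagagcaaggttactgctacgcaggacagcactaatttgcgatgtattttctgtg
Enah exon in none of the 4 transcripts: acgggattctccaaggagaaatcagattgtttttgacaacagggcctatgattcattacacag
Ctnnd1 encodes p120 catenin, which holds E-cadherin at the cell surface. Its full-length start codon lies in an exon of 289 bases (chr2:84624270-84624558), and transcripts without that exon start further along and give the short form that prevails in epithelium.

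Depth ran from 20688027 to 30066041 read pairs counted per keratinocyte library and from 21290068 to 44909629 counts, as salmon estimated them, per epidermis library. Trp63, the targeted gene, had different transcripts in the genotypes in epidermis, where NM_011641 was listed at 0 in every p63beta library and took 38.5% ± 5.20 of the Trp63 TPM in p63alpha (SD, n = 4, transcript usage called by edgeR with adjusted p 8.63e-11). The transcript NM_001127262 carried 85.1% ± 5.03 of the Trp63 TPM in p63beta and 10.2% ± 1.88 in p63alpha (SD, n = 4 each, edgeR adjusted p 0.00185). GENCODE M21 ties both to a single transcript, so their endings were not told apart here. Also called was NM_001127264, which took 4.81% ± 4.58 of the Trp63 TPM in p63beta and 44.2% ± 5.92 in p63alpha (SD, n = 4 each, edgeR adjusted p 0.00185). In keratinocytes, for which there are gene values only, Trp63 measured 59.9 ± 2.69 FPKM in p63beta and 30.3 ± 0.926 FPKM in p63alpha (SD, n = 3 each, edgeR adjusted p 0.0297), and gene totals do not show whether exon 13 was removed. The defining keratinocyte markers were present in every library, with a summed level of 26079.9 to 33583.9 CPM in p63beta and 25916.5 to 38785 CPM in p63alpha keratinocytes, and 120415 to 149000 CPM in p63beta and 112127 to 162910 CPM in p63alpha epidermis. Markers of other cell types differed between libraries. The 12 muscle genes summed to 3346 CPM in p63beta keratinocyte library 3, against 162 to 264 CPM in the other p63beta libraries and 113 to 297 CPM in p63alpha. The 8 endothelial genes summed to 16.03 to 48.8 CPM in p63beta keratinocytes, highest in library 3, and 6.29 to 11.9 CPM in p63alpha keratinocytes, without overlap. The part of these cells in the keratinocyte results was not tested. In epidermis the 10 fibroblast genes summed to 290 to 460 CPM in p63beta and 468 to 550 CPM in p63alpha, and the 9 melanocyte genes to 352 to 504 CPM in p63beta and 130 to 319 CPM in p63alpha, without overlap in either case. Of the epidermis columns, 6 carry the tag 02HZ in their names, and KO2 and WT3 carry another. The files do not say what the tags stand for.

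In keratinocytes none of the 5 splicing factors was called different between the genotypes. Esrp1 had the lowest p-value of them, with lower values in p63beta. Background for this comparison is that edgeR called 14 of 13820 genes (0.101%), of which 0 were among the 10 genes. At an unadjusted p under 0.05, 1 of the 10 genes was found, against 6.85% of all genes. DESeq2 called 223 genes and again 0 of the 10.

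Esrp1 measured 54.0, 60.1 and 57.7 FPKM in p63beta libraries 1, 2 and 3, against 63.4, 78.6 and 66.8 FPKM in p63alpha libraries 1, 2 and 3. Every p63beta library lay below every p63alpha library. The log2 fold change was -0.28 ± 0.11 (SE, 95% interval -0.54 to -0.01, unadjusted p 0.0436, edgeR adjusted p 0.702), and edgeR gave an adjusted p of 0.263 once replicate numbers were blocked. Without p63alpha library 2 it was -0.18 (unadjusted p 0.143), and leaving out a library gave an unadjusted p under 0.05 in 1 of 6 fits. Its relative Esrp2 measured 62.4, 82.5 and 70.1 FPKM in p63beta, against 66.7, 93.1 and 82.7 FPKM in p63alpha, and each p63beta library was below the p63alpha library of the same number although the groups overlapped. For Esrp2 the fitted log2 fold change came to -0.17 ± 0.16 (SE), with an edgeR adjusted p of 0.932, and it ran from -0.30 to -0.051 without a library, nearest to 0 without p63alpha library 2 or p63beta library 1. With the replicate block edgeR gave Esrp2 an unadjusted p of 0.0465 and an adjusted p of 0.379. The labels state no pairing of libraries. Both the block and the comparison by number rest on a pairing read from these same data.

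Ptbp1 measured 180, 186 and 176 FPKM in p63beta and 167, 175.6 and 165 FPKM in p63alpha. Its groups did not overlap, by a margin of 0.2 FPKM or less between the nearest libraries, with a log2 fold change of 0.10 ± 0.08 (SE) and an edgeR adjusted p of 0.908. Together with Esrp1, 2 of the 10 genes had groups without overlap, against 12.2% of all genes tested. Hnrnpab was the most abundant of the 10 genes in keratinocytes, at 290.4 ± 21.7 FPKM in p63beta and 272 ± 20.4 FPKM in p63alpha. Rbfox2 was the least abundant of the factors, at 11.5 ± 1.27 FPKM in p63beta and 11.5 ± 1.07 FPKM in p63alpha (SD, n = 3 each). The 95% intervals of the 5 factors ran from -0.55 to 0.34 on the log2 scale, so that a difference above 1.47-fold lies outside every one of them.

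In epidermis the same 5 factors were also not called, and their log2 fold changes lay between -0.08 and 0.01. Background there is that edgeR called 32 of 13796 genes (0.232%), with 0 of the 10 among them, and 4.64% of genes had an unadjusted p under 0.05. Esrp1 measured 167, 190, 173 and 136 TPM in p63beta libraries EP10, EP11, EP12 and KO2, against 210, 205, 182 and 158 TPM in p63alpha libraries EP07, EP08, EP09 and WT3. The groups overlapped, and the log2 fold change was -0.08 ± 0.14 (SE, 95% interval -0.40 to 0.23, edgeR adjusted p 0.9999). Without a library it ran from -0.14 (without EP09) to -0.017 (without EP07), and with limma on log2 TPM it was -0.18 at either pseudocount. Esrp2 averaged 117 ± 23.8 TPM in p63beta and 129.6 ± 13.5 TPM in p63alpha (SD, n = 4 each).

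Hnrnpab measured 509, 476, 278 and 233 TPM in p63beta (EP10, EP11, EP12, KO2) and 457, 529.9, 434 and 220.3 TPM in p63alpha (EP07, EP08, EP09, WT3). Libraries within a genotype differed more than the genotypes, and KO2 and WT3 were the lowest of their groups. The log2 fold change of Hnrnpab was -0.03 ± 0.26 (SE, 95% interval -0.60 to 0.55). Ptbp1 followed the same order of libraries in part, with 244, 270.2, 133 and 143 TPM in p63beta and 242, 275, 204 and 134 TPM in p63alpha, and a log2 fold change of -0.01 ± 0.24. Rbfox2 stood at 10.5 to 12.2 TPM in p63beta and 7.72 to 15.6 TPM in p63alpha. The intervals of the 5 factors ran from -0.60 to 0.55, which leaves room for differences of up to 1.52-fold. Transcript usage was tested for 13 transcripts of 4 of these factors (Esrp1, Hnrnpab, Ptbp1 and Rbfox2). Both edgeR and limma called 0 of the 13, beside 0.0662% and 0.0397% of all transcripts tested. At an unadjusted p under 0.05 edgeR found 0, beside 0.476%, and limma found 1, beside 4.75%. That was Ptbp1 NM_001283013, with a share of 3.53% in p63beta and 1.21% in p63alpha (limma unadjusted p 0.0398). The edgeR usage test recovered few changes in simulated data, so a lack of calls by it does not show like usage.

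**Figure D1:**
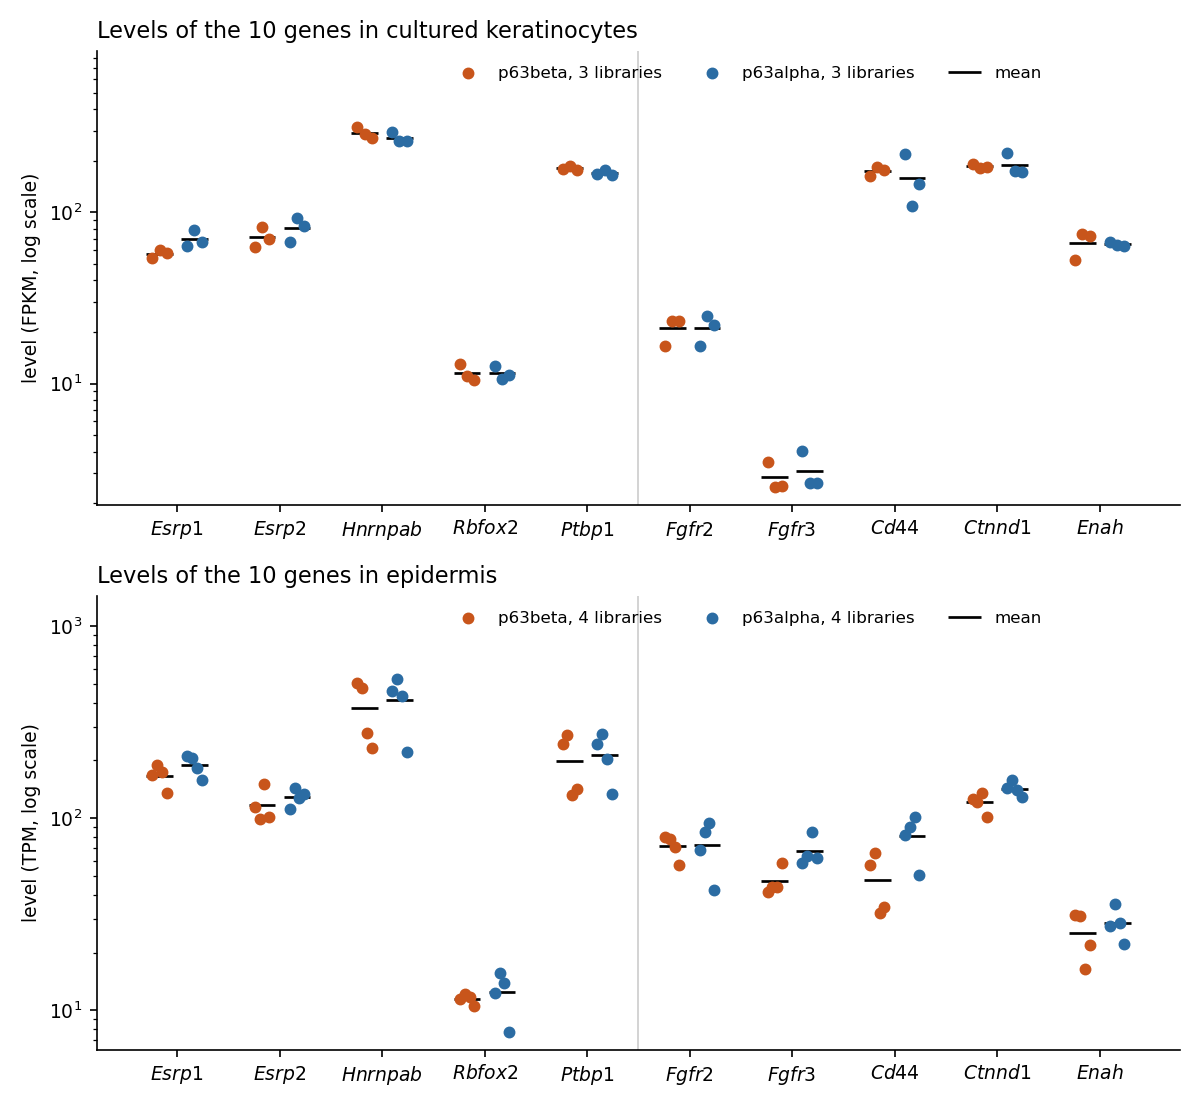
Level of each of the 10 genes in every library (points; log axis), with the group mean as a bar, in FPKM for keratinocytes (top) and TPM for epidermis (bottom); the splicing factors are left of the grey line and their targets right of it. Esrp1 and Ptbp1 in keratinocytes and Fgfr3 in epidermis are the genes whose p63beta and p63alpha points do not overlap.

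The spliced genes were not called at gene level either. In epidermis Cd44 and Fgfr3 stood lower in p63beta, at unadjusted p 0.0132 and 0.0858, and in keratinocytes the values of both genes overlapped between genotypes. Of the 10 genes 1, Fgfr3, had TPM values without overlap between genotypes, beside 2.73% of all genes tested in epidermis.

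Cd44 measured 57.1, 66.3, 32.2 and 34.4 TPM in p63beta libraries EP10, EP11, EP12 and KO2, against 81.4, 90.4, 102 and 50.6 TPM in p63alpha libraries EP07, EP08, EP09 and WT3. Only WT3 brought the groups to overlap. Among the libraries tagged 02HZ the means were 51.9 TPM in p63beta and 91.2 TPM in p63alpha, and the remaining pair had 34.4 TPM in p63beta (KO2) and 50.6 TPM in p63alpha (WT3). The log2 fold change was -0.70 ± 0.23 (SE, 95% interval -1.21 to -0.18), and the edgeR adjusted p was 0.711. The authors' deposited table gives a log2 fold change of -0.69 with an adjusted p of 0.324 for Cd44. Of the fibroblast markers, 9 were tested and 2 had a positive fold change, and their sum was also lower in p63beta epidermis, as given above, while all 9 melanocyte markers had a positive one. The immune marker sum overlapped between genotypes (31.98 to 159 CPM in p63beta, 83.9 to 146 CPM in p63alpha). None of these markers was at 0 in every library. Fibroblasts and immune cells also express Cd44, and the part of these cells in the result was not tested. In bulk tissue, fewer cells of a type and less RNA per cell cannot be told apart.

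In keratinocytes Cd44 measured 162, 183 and 176 FPKM in p63beta and 220.2, 109 and 146 FPKM in p63alpha. The p63alpha libraries spread on both sides of the p63beta libraries, and the log2 fold change was 0.14 ± 0.26 (SE, 95% interval -0.50 to 0.77). The Cd44 effect in epidermis minus that in keratinocytes was -0.82 ± 0.37 (SE, unadjusted p 0.0418, edgeR adjusted p 0.99995). It was the only one of the 10 genes with an unadjusted p under 0.05 for this difference, against 4.22% of 14655 genes, and edgeR called 0 genes (0%).

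Fgfr3 measured 41.4, 43.9, 44.0 and 58.2 TPM in p63beta (EP10, EP11, EP12, KO2), against 58.3, 63.9, 84.5 and 62.0 TPM in p63alpha (EP07, EP08, EP09, WT3). The groups touched without overlap in TPM, with KO2 just under EP07. In CPM they overlapped, with KO2 at 156 CPM, above EP07 at 141 CPM and EP08 at 147 CPM. The log2 fold change was -0.39 ± 0.20 (SE, 95% interval -0.84 to 0.07, edgeR adjusted p 0.9999), and without KO2 it was -0.62 (edgeR adjusted p 0.526). Fgfr3 was low in keratinocytes, at 2.83 ± 0.547 FPKM in p63beta and 3.10 ± 0.830 FPKM in p63alpha (SD, n = 3 each).

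Fgfr2 overlapped in both kinds of sample. It averaged 71.4 ± 10.4 TPM in p63beta and 72.3 ± 22.7 TPM in p63alpha epidermis (SD, n = 4 each), and 21.02 ± 3.80 FPKM in p63beta and 21.1 ± 4.19 FPKM in p63alpha keratinocytes (SD, n = 3 each). Ctnnd1 measured 127, 121, 135 and 101 TPM in p63beta and 144, 158, 141 and 129 TPM in p63alpha epidermis, with a log2 fold change of -0.15 ± 0.14 (SE). Enah averaged 25.2 ± 7.24 TPM in p63beta and 28.5 ± 5.62 TPM in p63alpha epidermis (SD, n = 4 each). In keratinocytes the log2 fold changes of Ctnnd1 and Enah were -0.02 ± 0.13 and 0.04 ± 0.16 (SE). Over the 10 genes the median log2 fold change was 0.01 in keratinocytes and -0.06 in epidermis, beside medians of -0.001 and -0.004 over all genes tested.

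**Figure D2:**
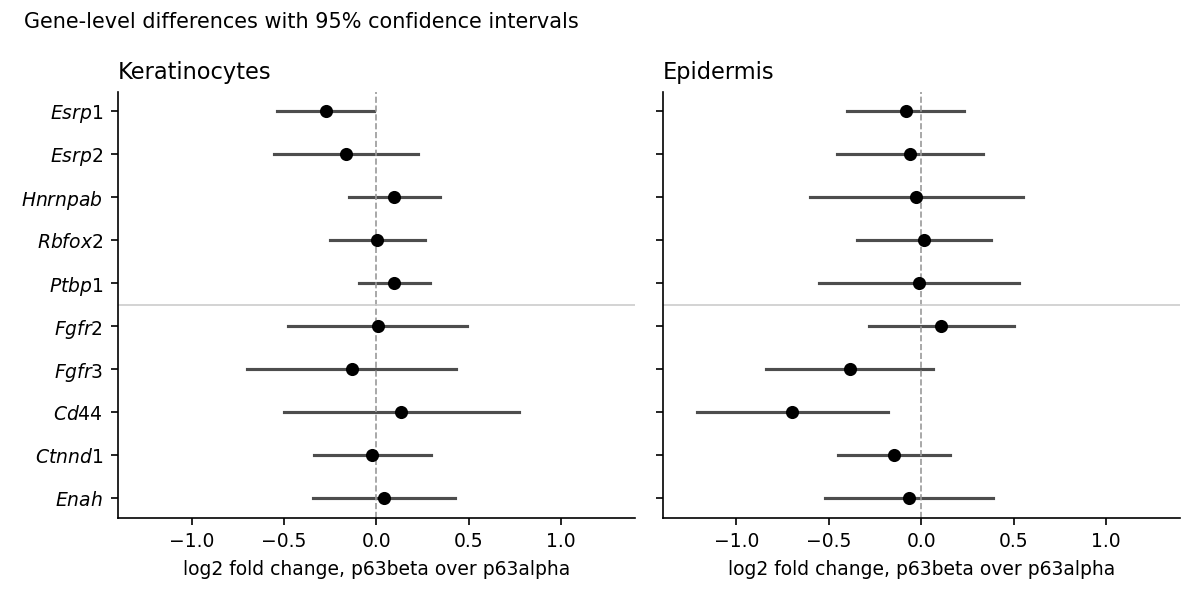
Log2 fold change of each gene, p63beta over p63alpha (points), with its 95% confidence interval (lines) from edgeR, in keratinocytes (left) and epidermis (right); the dashed line marks no difference. Esrp1 in keratinocytes (-0.28) and Cd44 in epidermis (-0.70) are the intervals that leave out 0 before adjustment.

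Transcripts can shift while a gene's total does not, so the share of each transcript in its gene's TPM was compared in epidermis. Of the 17 transcripts of the 5 genes in the usage test, edgeR called 0, beside 5 of 7557 transcripts (0.0662%), of which 3 belong to Trp63. At an unadjusted p under 0.05 edgeR found 1 of the 17, beside 0.476% of all transcripts tested. The edgeR usage test recovered few of the changes made in simulated data. A lack of calls by it therefore does not show that usage was alike. limma called 0 of the 17, beside 0.0397%, and found 2 at an unadjusted p under 0.05, beside 4.75%. Shares were also set against all 70 ways to split the libraries 4 and 4, in a two-sided exact permutation test that cannot give a p below 0.0286. By that test 2 of the 17 transcripts had an unadjusted p under 0.05, beside 2.2% of all transcripts tested, and the same 2, both of Cd44, had shares without overlap between genotypes, beside 2.17%.

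The standard Cd44 transcript, which holds none of the variable exons, carried a larger share of Cd44 in p63beta epidermis. NM_001039151 took 13.4%, 11.1%, 14.1% and 12.5% of the Cd44 TPM in p63beta libraries EP10, EP11, EP12 and KO2, against 5.90%, 1.95%, 5.08% and 2.46% in p63alpha libraries EP07, EP08, EP09 and WT3. Every p63beta library lay above every p63alpha library, and this held within the 02HZ tag and in the remaining pair. The means were 12.8% ± 1.28 in p63beta and 3.85% ± 1.94 in p63alpha (SD, n = 4 each, exact permutation p 0.0286). The usage test of edgeR gave this transcript an unadjusted p of 0.0142 and an adjusted p of 0.99995. In limma's usage test the adjusted p was 0.414.

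The transcript with all 10 variable exons took a smaller share in p63beta. NM_009851 took 29.5%, 32.02%, 25.8% and 14.8% in p63beta (EP10, EP11, EP12, KO2), against 34.8%, 38.4%, 32.9% and 42.5% in p63alpha (EP07, EP08, EP09, WT3). The groups did not overlap, and the nearest libraries, EP11 and EP09, were less than 1 percentage point apart. The difference of the means was -11.6 percentage points (exact permutation p 0.0286), and among the libraries tagged 02HZ it was -6.26 points (exact permutation p 0.1, the smallest that 3 against 3 allows). NM_001039150, with 5 variable exons, averaged 23.4% ± 5.07 in p63beta and 16.3% ± 3.78 in p63alpha (SD, n = 4 each, exact permutation p 0.0857). NM_001177785, with 7, averaged 31.7% ± 5.69 in p63beta and 37.1% ± 6.93 in p63alpha (SD, n = 4 each, exact permutation p 0.314). NM_001177786, with 3, averaged 5.81% ± 3.34 in p63beta and 5.62% ± 2.54 in p63alpha, and NM_001177787, with 2, stayed under 1%.

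Summed by exon, the share of Cd44 TPM in transcripts that hold variable exon 10 was 87.2% ± 1.28 in p63beta and 96.2% ± 1.94 in p63alpha. For variable exon 6 it was 80.6% ± 2.92 in p63beta and 90.5% ± 4.45 in p63alpha, for exon 4 it was 57.2% ± 7.98 in p63beta and 74.2% ± 7.21 in p63alpha, and for exon 1 it was 25.5% ± 7.59 in p63beta and 37.2% ± 4.25 in p63alpha (SD, n = 4 each). These sums share transcripts and are not separate results. Weighted by TPM, a Cd44 transcript held 6.50, 6.34, 6.14 and 5.54 variable exons in p63beta (EP10, EP11, EP12, KO2) and 6.90, 7.67, 7.06 and 7.54 in p63alpha (EP07, EP08, EP09, WT3), without overlap. In absolute terms the standard transcript measured 5.96 ± 1.79 TPM in p63beta and 3.24 ± 2.03 TPM in p63alpha (SD, n = 4 each, exact permutation p 0.171), and its groups overlapped. The transcripts with a variable exon summed to 41.5 ± 15.2 TPM in p63beta and 77.8 ± 20.7 TPM in p63alpha (SD, n = 4 each, exact permutation p 0.0857). The transcript with all variable exons measured 16.8, 21.2, 8.32 and 5.09 TPM in p63beta and 28.3, 34.7, 33.5 and 21.5 TPM in p63alpha, without overlap (exact permutation p 0.0286). The 6 transcripts also differ in their annotated last exons, from 208 to 3197 bases, so a share is that of a whole transcript as salmon estimated it, not of exon junctions. Mesenchymal and immune cells make mostly the standard form, and their part in these shares was not tested.

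**Figure D3:**
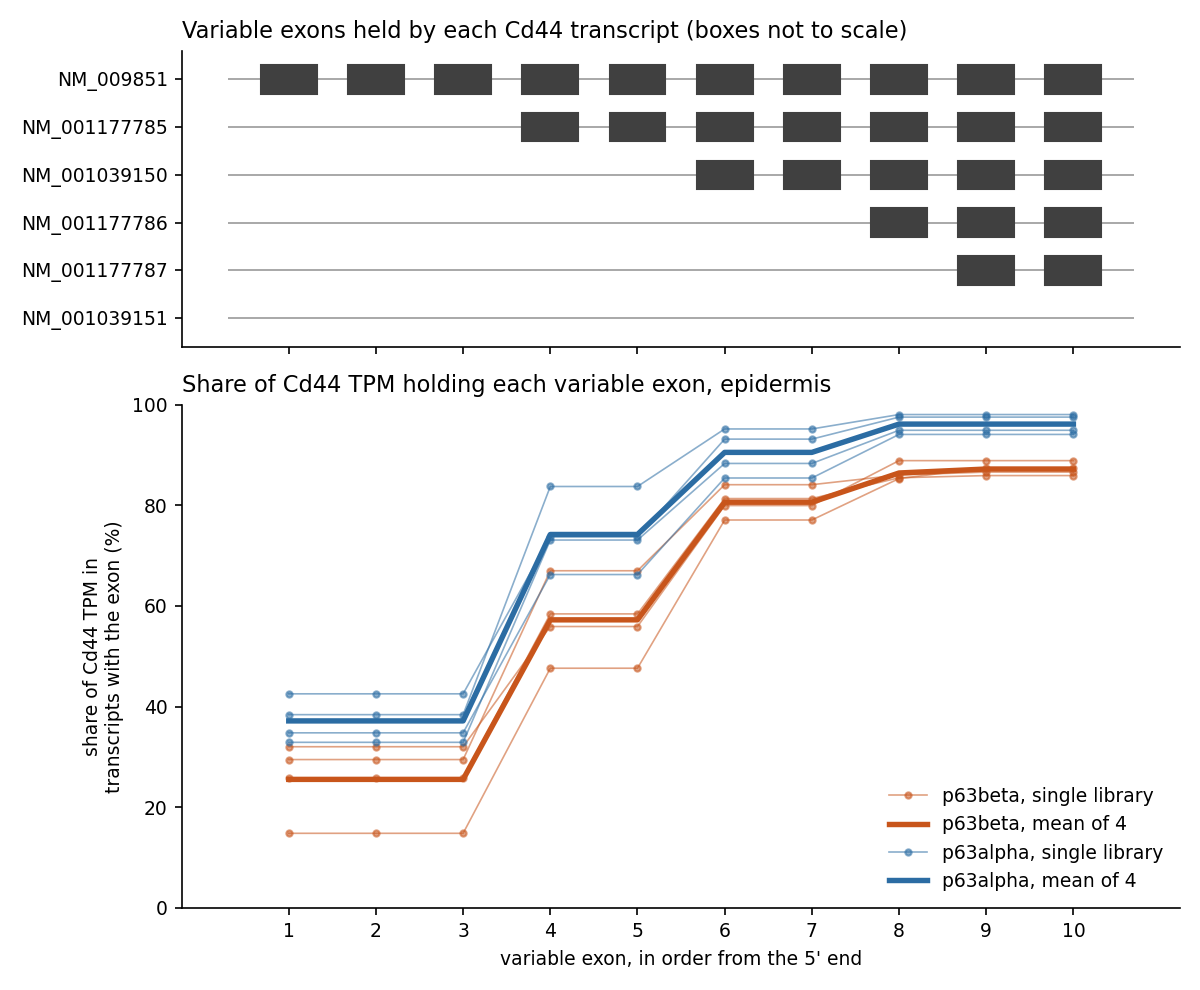
Top, the variable exons held by each of the 6 Cd44 transcripts (boxes, not to scale); bottom, percentage of the Cd44 TPM in transcripts that hold each variable exon, per epidermis library (thin lines) and as the mean of 4 (thick lines). The p63beta libraries lie below the p63alpha libraries at exons 1 to 3 and 6 to 10 and overlap at exons 4 and 5.

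The shares of the receptor forms overlapped between genotypes, and the IIIb form was the larger in every library. For Fgfr2 the IIIb transcript NM_201601 took 65.5%, 64.1%, 59.1% and 63.7% of the TPM in p63beta (EP10, EP11, EP12, KO2) and 68.9%, 59.9%, 66.9% and 70.3% in p63alpha (EP07, EP08, EP09, WT3). The rest was the IIIc transcript NM_010207. The groups overlapped, with means of 63.1% ± 2.80 in p63beta and 66.5% ± 4.62 in p63alpha (SD, n = 4 each, exact permutation p 0.257). These transcripts differ beyond the receptor exon, since NM_010207 also holds exons of 267 and 78 bases that NM_201601 lacks, and their last exons are 415 and 1673 bases long, so the share cannot be read as that of the exon alone. For Fgfr3 the IIIb transcript NM_001163217 took 81.0%, 80.5%, 77.8% and 81.8% in p63beta and 81.9%, 79.0%, 82.8% and 82.5% in p63alpha. The difference of the means was -1.31 points (exact permutation p 0.314). Among the IIIc transcripts of Fgfr3, NM_001205270 held 15.5% ± 2.93 in p63beta and 13.9% ± 0.395 in p63alpha (SD, n = 4 each), while NM_001163215 and NM_001163216 each averaged under 3% and NM_008010 was listed at 0.

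Ctnnd1 transcripts with the full-length start exon took 49.9% ± 3.49 of the TPM in p63beta and 47.5% ± 2.82 in p63alpha (SD, n = 4 each, exact permutation p 0.314). The transcript without it, NM_001085449, made up the rest, at 46.6% to 53.3% in p63beta and 49.2% to 55.4% in p63alpha. Ctnnd1 has a further small exon of 63 bases (chr2:84605184-84605246). It was in transcripts with 67.0% ± 2.47 of the TPM in p63beta and 71.0% ± 3.74 in p63alpha, and NM_001085453, which lacks it, took 33.0% ± 2.47 in p63beta and 29.0% ± 3.74 in p63alpha (SD, n = 4 each, exact permutation p 0.143). The transcript NM_001085450, with both of these exons and an 18-base exon, averaged 16.7% ± 3.29 in p63beta and 18.5% ± 5.84 in p63alpha.

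Enah was mostly NM_001083121, which uses a short version of an inner exon (111 bases in place of 843) and took 78.3%, 58.5%, 81.7% and 82.1% in p63beta (EP10, EP11, EP12, KO2) and 72.3%, 78.6%, 76.5% and 82.2% in p63alpha (EP07, EP08, EP09, WT3). The library EP11 stood apart, and without it the difference of the means was 3.30 points, against -2.25 points with it. NM_001083120, with the long version, averaged 21.3% ± 8.73 in p63beta and 17.3% ± 4.34 in p63alpha (SD, n = 4 each). The transcript with the 57-base exon, NM_010135, took 3.51% ± 2.79 in p63beta and 5.26% ± 1.58 in p63alpha (SD, n = 4 each, exact permutation p 0.371). The last exon of NM_001083121 is 9514 bases long, against 385 bases in the other Enah transcripts.

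**Figure D4:**
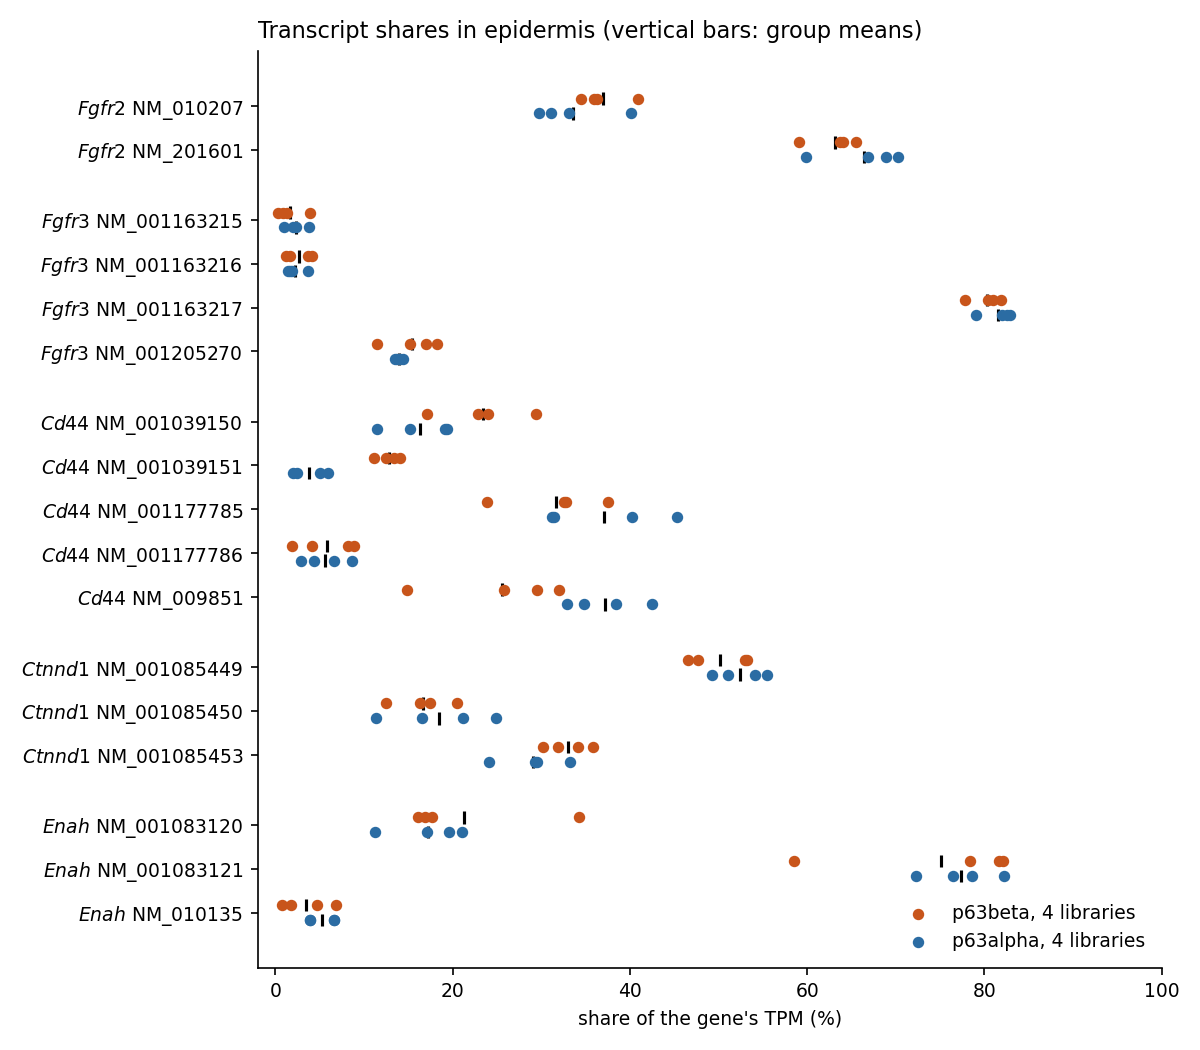
Share of its gene's TPM taken by each of the 17 transcripts with a mean of at least 1%, in every epidermis library (points, p63beta above p63alpha; vertical bars are means of 4). The groups are apart for Cd44 NM_001039151 and NM_009851 and overlap for the other 15.

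Other genes of the same pathways were taken from lists. Of 24 other genes reported to depend on Esrp1 and Esrp2 for splicing, 17 had 2 or more transcripts in the usage test, 48 in all. edgeR called 0 of the 48 and found 0 at an unadjusted p under 0.05, beside 0.476% of all transcripts. limma found 2 of the 48 at that level, beside 4.75%, and 4 of the 48 had an exact permutation p of 0.0286 for their share, beside 2.2% of all transcripts with an exact p under 0.05. These 4 were picked out by their values. Map3k7, a kinase of TGF-beta signalling, had 65.0% in NM_009316 in p63beta and 73.7% in p63alpha, and its other transcript NM_172688 is the complement. Fgfr1 had 42.8% in NM_001079909 in p63beta and 33.8% in p63alpha, and Tcf7l2, a mediator of Wnt signalling, had 0%, 10.8%, 0% and 16.4% in NM_001142922 in p63beta (EP10, EP11, EP12, KO2) and 30.3%, 17.5%, 70.3% and 20.95% in p63alpha (EP07, EP08, EP09, WT3), a wide spread within p63alpha. The edgeR adjusted p of that Tcf7l2 transcript was 0.99995. For the Fgfr1 transcript the unadjusted usage p was 0.702 in edgeR and 0.594 in limma. For Map3k7 NM_009316 it was 0.595 in edgeR and 0.0223 in limma. Whether these transcripts differ by an exon that depends on Esrp1 and Esrp2 was not tested. At gene level, 0 of these 24 genes were called in either kind of sample.

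Among other splicing factors, 0 of 13 SR and Tra2 genes and 0 of 22 hnRNP genes were called in either kind of sample. Their median log2 fold changes were 0.09 and 0.06 in keratinocytes and 0.006 and -0.008 in epidermis. Among other tissue-restricted regulators, 0 of 18 tested in keratinocytes and 0 of 17 tested in epidermis were called. Celf2, which binds GU-rich RNA, had lower means in p63beta in both, at 1.62 ± 0.204 FPKM in p63beta and 2.49 ± 0.555 FPKM in p63alpha keratinocytes (SD, n = 3 each) and at 1.61 ± 0.203 TPM in p63beta and 2.63 ± 0.665 TPM in p63alpha epidermis (SD, n = 4 each). Its unadjusted p-values were 0.0143 and 0.0199, with edgeR adjusted p of 0.556 and 0.830, and its groups overlapped in epidermis. Its relative Celf1 went the other way, with log2 fold changes of 0.16 in keratinocytes and 0.44 in epidermis (edgeR adjusted p 0.811 and 0.935). In each kind of sample 1 gene of this list was higher and 1 lower at an unadjusted p under 0.05. Over all genes tested that share was 6.85% in keratinocytes and 4.64% in epidermis. Mbnl1, a regulator that acts against fetal splicing patterns, measured 27.4 ± 1.23 FPKM in p63beta and 22.1 ± 1.34 FPKM in p63alpha keratinocytes (SD, n = 3 each, edgeR adjusted p 0.480). Rbm47, which also favours epithelial exons, measured 4.03 ± 0.312 FPKM in p63beta and 3.87 ± 0.905 FPKM in p63alpha keratinocytes.

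A further list held genes of epithelial identity and of the change to mesenchyme, most of them transcription factors. Of these, 0 of 18 tested in keratinocytes and 0 of 16 tested in epidermis were called. In keratinocytes 4 of the 18 had a positive fold change, with a median log2 fold change of -0.23, beside -0.001 over all genes tested. In epidermis 8 of the 16 did, with a median of 0.014, beside -0.004. Zeb1 and Zeb2, which repress Esrp1 and Esrp2 in mesenchymal cells, stood at 0.270 ± 0.194 and 1.82 ± 0.763 FPKM in p63beta keratinocytes and at 0.326 ± 0.375 and 2.05 ± 0.796 FPKM in p63alpha keratinocytes (SD, n = 3 each). Grhl2, an activator of epithelial genes, measured 19.1 ± 1.08 FPKM in p63beta and 20.4 ± 2.29 FPKM in p63alpha keratinocytes. Its relative Grhl1 measured 27.99 ± 1.39 FPKM in p63beta and 39.2 ± 5.80 FPKM in p63alpha keratinocytes, without overlap (edgeR adjusted p 0.449). Snai3 went the other way in keratinocytes, at 16.7 ± 2.02 FPKM in p63beta and 5.54 ± 4.51 FPKM in p63alpha, without overlap (edgeR adjusted p 0.667). Cdh1 measured 407 ± 24.6 FPKM in p63beta and 503 ± 57.8 FPKM in p63alpha keratinocytes, without overlap (edgeR adjusted p 0.728). Of all genes tested in keratinocytes, 12.2% had groups without overlap. In epidermis the groups of Grhl1 and Cdh1 overlapped, with log2 fold changes of -0.06 and -0.02, and Snai3 was below the filter. Ovol1, which represses Zeb1, measured 110.1 ± 38.5 TPM in p63beta and 79.6 ± 30.2 TPM in p63alpha epidermis (SD, n = 4 each). Ovol1 and Grhl2 overlapped between genotypes in both kinds of sample.

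Around the FGF receptors, 0 of 7 ligand and receptor genes tested in keratinocytes and 0 of 10 in epidermis were called. The Fgfr2 IIIb ligands Fgf7 and Fgf10 were below the filter in both kinds of sample, at means under 0.12 TPM or FPKM. Fgf22, a ligand made by keratinocytes, measured 25.6 ± 4.33 TPM in p63beta and 29.3 ± 8.86 TPM in p63alpha epidermis (SD, n = 4 each). In cultured keratinocytes Fgf22 was below the filter, at 0.199 FPKM in p63beta and 0.111 FPKM in p63alpha. Fgfr1 measured 15.8 ± 4.96 TPM in p63beta and 18.6 ± 8.36 TPM in p63alpha epidermis, and Fgfr4 was below the filter. Of 24 signalling and feedback genes, 0 were called. In epidermis 4 of the 24 had an unadjusted p under 0.05, beside 4.64% of all genes, and all 4 had a positive fold change. The list was itself built from FGF signalling and feedback genes. Dusp6, a phosphatase that acts on ERK, measured 35.2 ± 6.51 TPM in p63beta and 25.5 ± 5.16 TPM in p63alpha (SD, n = 4 each, edgeR adjusted p 0.868), and the others were Dusp4, Dusp5 and Myc. All 4 overlapped between genotypes in TPM. In keratinocytes Etv4, a target of FGF signalling, measured 22.1 ± 3.62 FPKM in p63beta and 13.97 ± 3.12 FPKM in p63alpha (SD, n = 3 each, edgeR adjusted p 0.556). There 4 of the 24 had an unadjusted p under 0.05, beside 6.85% of all genes, with Etv4 and Fosl1 higher and Il17rd and Gab1 lower in p63beta. Il17rd, a feedback inhibitor of FGF receptors, measured 0.903 ± 0.0185 FPKM in p63beta and 1.33 ± 0.144 FPKM in p63alpha keratinocytes (SD, n = 3 each, edgeR adjusted p 0.453), without overlap, as for 12.2% of all genes tested there. Spry2, a feedback inhibitor, overlapped in both kinds of sample.

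By level in p63alpha, Hnrnpab stood first of the 10 genes in both kinds of sample. In keratinocytes Ctnnd1, Ptbp1 and Cd44 followed with libraries that overlapped from each to the next, then Esrp2, Esrp1 and Enah, then Fgfr2, Rbfox2 and Fgfr3, which were apart from each other. In epidermis neighbours overlapped within the run of Hnrnpab, Ptbp1, Esrp1, Ctnnd1 and Esrp2, and within the run of Cd44, Fgfr2 and Fgfr3. Esrp2 did not overlap with Cd44, and Enah and Rbfox2 stood lowest and apart. These orders are within tables, because FPKM and TPM were made by different methods and the levels were not compared across them.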

How the data were processed

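RNA was sequenced from 14 libraries, of which 6 were of keratinocytes and 8 of epidermis. The keratinocyte counts that the authors deposited were made by featureCounts 1.5.2 over RefSeq genes, per the file headers, and stand beside deposited FPKM values. The epidermis files that the authors deposited hold salmon's expected counts and TPM, by gene and by transcript. The build was mm10 and the reads were aligned with STAR, per the submitters' processing notes, while versions of STAR, salmon and DESeq2 are not given in the sources used here. From the authors' deposited DESeq2 tables the log2 fold change and adjusted p-value were taken. The column headed WT_vs_KO in the epidermis table has the sign of p63beta over p63alpha (all 1641 genes above 2-fold), and it was read so. The 14 per-library columns of those tables were not used. The files name epidermis columns by genotype, not by label number, so each was tied to its genotype only.

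The members and gene lists were chosen with earlier results of these data known. Estimated counts were rounded. Each table was fitted alone in edgeR 4.0.16 (R 4.3.3) with TMM, filterByExpr by group, robust quasi-likelihood tests and Benjamini-Hochberg adjustment over all genes, called at an adjusted p under 0.05. The difference between tissues was an interaction term over 14 libraries and genes in both tables (23199 joined). Transcript usage was tested with edgeR's diffSpliceDGE. On simulated data that test recovered few of the changes made, so limma 3.58.1 usage tests and exact permutation tests of shares stand beside it. Isoform classes came from GENCODE M21 exons, to which all 22 transcripts matched. Named genes are the 10 members, transcripts with a mean share of at least 1%, list genes that were called, the 3 with the lowest p per list and table, and a fixed set of receptors, ligands and regulators; the text gives a part of them, picked after values were seen.

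Same-numbered keratinocyte libraries deviated together (correlations 0.624, 0.526 and 0.271 over 11560 genes). Libraries of unlike number had correlations from -0.534 to 0.217, so the libraries numbered 3 were set little apart from these. Deviations were taken from the genotype mean and cancel out within a genotype. The correlations of like and unlike numbers are therefore not independent of each other. The labels state no pairing, and for the replicate block the numbers were taken to pair libraries on the basis of these same data. Alternatives were RLE size factors, no filter, DESeq2 1.42.0, limma on log2 of FPKM or TPM plus 1 or 0.1, the replicate block, the column tag as a term and leaving out each library. After the data were seen, the 6 libraries tagged 02HZ alone and the tag as a term in the usage fit were added. Intervals cover 95%.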

Additional observations from a re-analysis of the deposited data

Results flagged for a closer look

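In a group of 4 libraries, the highest or lowest was set against the rest by Dixon's rule for the 10 genes and 17 transcripts in each epidermis genotype, 54 groups, of which chance flags about 1 in 20. Library KO2 of p63beta stood apart for Fgfr3, at 58.2 TPM beside 41.4, 43.9 and 44.0 TPM in the other p63beta libraries. Library EP11 of p63beta stood apart for the Enah transcripts, with a share of 34.3% for NM_001083120 and 58.5% for NM_001083121, which largely mirror each other.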

How the results depend on the processing

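None of the 10 genes was called under any alternative run, while the count over all genes moved in keratinocytes from 14 to 223 with DESeq2, 37 with the replicate block and 1 to 4 without a library, and in epidermis from 32 to 141 with DESeq2, 8 in the 02HZ libraries and 10 to 28 without a library. Usage of the 17 transcripts was likewise called in 0 cases. The replicate block changed no call of the 10 genes. No paired analysis was possible for epidermis because its columns carry no replicate number. The count of shares with an exact permutation p under 0.05 was 2, ranged from 1 to 3 without a library, and was 0 in the 02HZ libraries, where 3 against 3 cannot go below 0.1. The standard Cd44 transcript was 8.30 to 9.62 points higher without any library (exact permutation p 0.0286 each time), whereas NM_009851 missed 0.05 without KO2 or any p63alpha library (p 0.0571). Small differences changed sign in some settings. In keratinocytes the log2 fold change of Rbfox2 was -0.0027 with RLE size factors, -0.0019 without the filter and -0.0026 with DESeq2, and that of Fgfr2 was -0.0012 with RLE, -0.0039 without the filter, -0.0011 with DESeq2, and -0.0013 and -0.0012 with limma at a pseudocount of 1 and of 0.1. Without a library, the ranges there were 0.058 to 0.15 for Hnrnpab, -0.067 to 0.073 for Rbfox2, -0.15 to 0.16 for Fgfr2, -0.28 to 0.10 for Fgfr3, -0.075 to 0.45 for Cd44, -0.093 to 0.10 for Ctnnd1 and -0.052 to 0.20 for Enah. In epidermis the 02HZ libraries alone gave 0.032 for Esrp2, -0.14 for Rbfox2 and -0.0012 for Fgfr2, and limma gave -0.067 and -0.068 for Rbfox2 with a pseudocount of 1 and of 0.1. Without a library, the ranges there were -0.19 to 0.049 for Esrp2, -0.18 to 0.10 for Hnrnpab, -0.11 to 0.10 for Rbfox2, -0.17 to 0.14 for Ptbp1, -0.025 to 0.21 for Fgfr2 and -0.16 to 0.10 for Enah. Differences in share, in points, ranged from -0.016 to 0.98 for NM_001163216, from -0.85 to 1.48 for NM_001177786 (-1.04 in the 02HZ libraries), from -4.17 to 0.33 for NM_001085450, from -0.37 to 5.69 for NM_001083120 and from -4.57 to 3.30 for NM_001083121. The causes were not tested. Shares are salmon estimates, so depth sets their precision in a way the files do not give.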
